A study of Pseudotsuga menziesii with 83 samples.

Results

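The needle transcriptome of Douglas-fir (Pseudotsuga menziesii) on 17 June was compared with that on 6 May of the same year in the same 11 trees, which gave 22 of the 83 libraries of the series. Trees were included if the count table held a library of both dates, and each June library was paired with the May library of its own tree. Tree 38 was left out, because the sources disagree on the date of its June library. All trees were seed-grown and planted in 1 common garden in southern Oregon, with no treatment other than season. They came from 3 seed sources, namely 4 trees from the Oregon Siskiyou (trees 44, 90, 46 and 89), 3 from the Washington Cascades (trees 5, 39 and 8) and 4 from the Washington Coast (trees 10, 69, 12 and 68). Each source was represented by 2 half-sib families, 6 in all, so that trees 44 and 90, 46 and 89, 5 and 39, 10 and 69, and 12 and 68 are siblings. On both dates mature needles, grown in the year before, were taken around midday from 4 sides of each tree, and never from the new growth. All 11 trees were past budbreak on 17 June, and 10 of 11 on 6 May, when tree 10 still had closed buds. The other dates in the table, 10 March and 7 April, were used only to place the levels of May and June.

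A mature Douglas-fir needle stays on the tree for several years and passes repeatedly through winter dormancy, spring recovery of photosynthesis and summer growth of the shoot. After budbreak the older needles supply carbon and stored nutrients to the elongating shoot, and by midsummer they face longer days, warmer air and drier soil. Transcript levels in conifer needles follow both the daily light cycle and the season, and sampling at a fixed time of day holds the daily cycle roughly constant. The comparison asks which features differ between late spring, when most of these trees were already past budbreak, and early summer, close to the longest day. The features carry numbers, and the files do not pair these with gene names, so 4 are named by their numbers, no sequences are shown, and markers of the tissue could not be looked up.

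The 22 libraries had between 11293737 and 11302021 counts each. Totals had been brought to nearly one value before deposit, so they no longer show how deeply each library was sequenced. The paper lists the reads obtained from each library, which differed between libraries and were not used here. An effect of depth on low counts and on detection was not tested. Date was confounded with sequencing lane, since every May library was run on lane 3 or 4 and every June library on lane 5 or 6 of the same flowcell. A difference between dates and a difference between lanes therefore cannot be told apart. The March and April libraries were split between other lanes of this flowcell and another flowcell. Trees run on lanes 3 and 5 and trees run on lanes 4 and 6 could be compared with each other. The 22 libraries share 1 site and 1 year, so day length, temperature, drought and needle age also moved together between the dates and cannot be told apart. Changes are given on the log2 scale as 17 June over 6 May, with the tree as a block.

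Of the 28233 features with a median count over 5, 4162 (14.7%) differed between 17 June and 6 May (edgeR quasi-likelihood test, Benjamini-Hochberg adjusted p of at most 0.01). Expression was higher on 17 June for 1956 features, 6.93% of those tested, and lower for 2206, or 7.81%. The changes were mostly moderate. The median size among called features was 0.68 on the log2 scale, a fold of 1.60, both for those that rose and for those that fell. All tested features had a median size of 0.27. A change of at least 1 on the log2 scale was seen in 384 of the risers and 543 of the fallers, and a change of at least 2 in 25 risers and 57 fallers. Testing against a minimum change of 1, rather than against no change, left 14 features, 4 higher and 10 lower on 17 June. No feature switched fully between dates. None of the 90662 features in the table was counted in all 11 libraries of one date and in no library of the other. The 60 features counted in at least 6 June libraries but no May library never exceeded 6 counts in a library, and the 29 counted in at least 6 May libraries but no June library never exceeded 21. Since whole needles were sequenced, fewer cells of a type and less RNA per cell cannot be told apart.

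**Figure D1:**
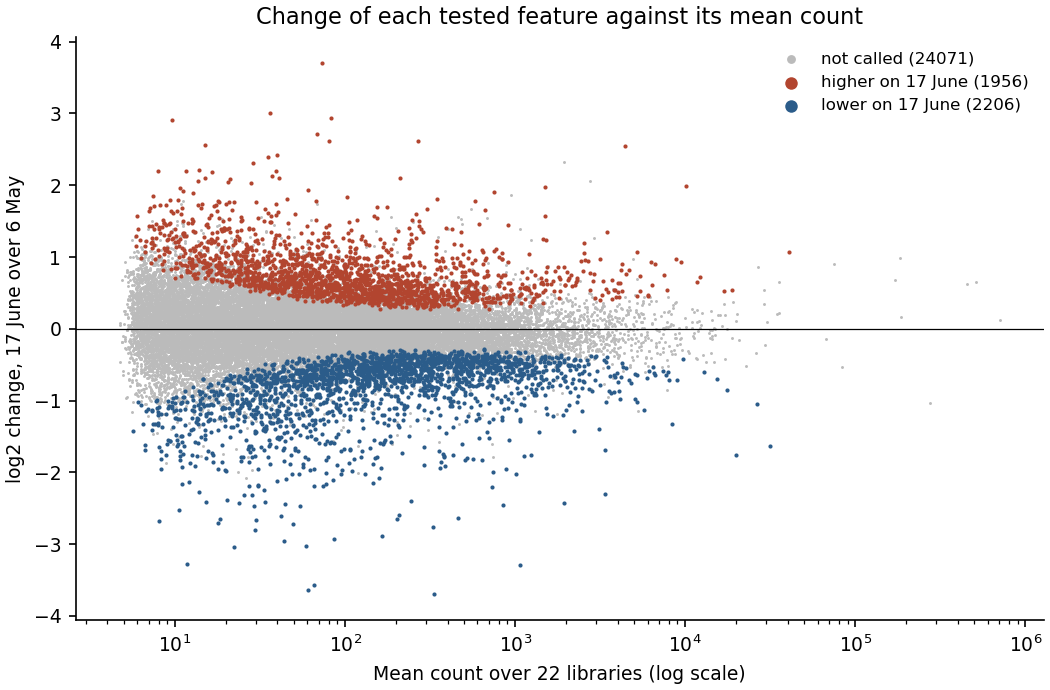
Each point is 1 of the 28233 tested features, with its mean count over the 22 libraries on the x axis (log scale) and its log2 change, 17 June over 6 May, on the y axis. The 1956 features higher on 17 June are red, the 2206 lower ones blue, and features that missed the threshold are grey; the changes reach 3.70 in size, and features of low count needed a larger change to be called than those of middle count.

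The balance of rises and falls depended on how libraries were scaled. With TMM scaling 47.0% of the called features were higher on 17 June, and the median change over all tested features was 0.0019 on the log2 scale. With library totals alone 2744 features were called and 35.6% of them were higher on 17 June, with a median change over all features of -0.033. TMM factors lay between 0.834 and 1.14 in June libraries and between 0.789 and 1.19 in May libraries. Scaling by DESeq2's size factors gave 4202 calls, of which 45.5% were higher.

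A pair of features that rose and a pair that fell are described by tree, in CPM, the count of a feature per 1000000 counts of the scaled library. They had the largest changes among the 1387 called features (594 higher, 793 lower) that averaged 50 counts or more and moved in one direction in all 11 trees. Feature gene27956 had 1.29 CPM in the lowest, 4.92 CPM in the median and 52.4 CPM in the highest June library, against 0, 0.498 and 2.93 CPM in the lowest, median and highest May libraries. The dates overlapped, since 2 June libraries lay below the highest May library. Its log2 change was 3.70 (SE 0.45), a fold of 13.0, with an edgeR adjusted p of 8.34e-05. The change ranged over trees from 0.23 in tree 44 to 6.57 in tree 68. May counts were very low in several trees, with none in tree 5 and 2, 3 and 3 counts in trees 12, 8 and 68.

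Feature gene15258 was more abundant. Its June libraries had 6.32 CPM at the lowest, 22.7 CPM at the median and 136 CPM at the highest, against 0.939, 4.94 and 14.1 CPM in May libraries. For this feature 4 June libraries lay below the highest May library, that of tree 46. The log2 change was 2.62 (SE 0.42, edgeR adjusted p = 4.58e-04). Changes averaged 3.81 ± 1.07 in Coast trees (SD, n = 4), 2.50 ± 2.05 in Cascades trees (n = 3) and 1.45 ± 1.01 in Oregon trees (n = 4). This difference among sources did not pass the test over all features (edgeR, unadjusted p = 0.0213, adjusted p = 0.806). In tree 5 the direction rested on the scaling, since the raw count was 72 on 17 June and 76 on 6 May, while the scaled values were 7.19 and 5.96 CPM.

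Feature gene23660 fell in every tree. It had 0.569 CPM in the lowest, 2.73 CPM in the median and 20.3 CPM in the highest June library, against 7.48, 41.1 and 120 CPM in May libraries. Only 1 June library, that of tree 44, exceeded the lowest May library. Its log2 change was -3.69 (SE 0.43), a 12.9-fold lower level, with an edgeR adjusted p of 6.34e-05. Tree 10 changed most, by -6.67 on the log2 scale, with 9 counts on 17 June and 1364 on 6 May. Tree 44 changed least, by -1.01.

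Feature gene79725 had 0 CPM in the lowest, 0.289 CPM in the median and 2.69 CPM in the highest June library, against 2.02, 7.28 and 33.1 CPM in May libraries. Its level in 3 June libraries exceeded the lowest May library, and all 3 were from Cascades trees. The log2 change was -3.64 (SE 0.31, edgeR adjusted p = 7.94e-06). By source it averaged -4.47 ± 0.77 in Coast trees (n = 4), -2.68 ± 1.15 in Cascades trees (n = 3) and -4.38 ± 0.79 in Oregon trees (n = 4). The test for a difference among sources did not pass over all features (edgeR, unadjusted p = 0.0111, adjusted p = 0.774). All 4 named features stayed past the threshold whichever tree was left out, with edgeR adjusted p values of at most 3.82e-04 for gene27956, 0.00184 for gene15258, 2.77e-04 for gene23660 and 5.6e-05 for gene79725. They were chosen in these libraries as called features with large changes of one direction in every tree. This stability is therefore largely built in and is not separate evidence.

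**Figure D2:**
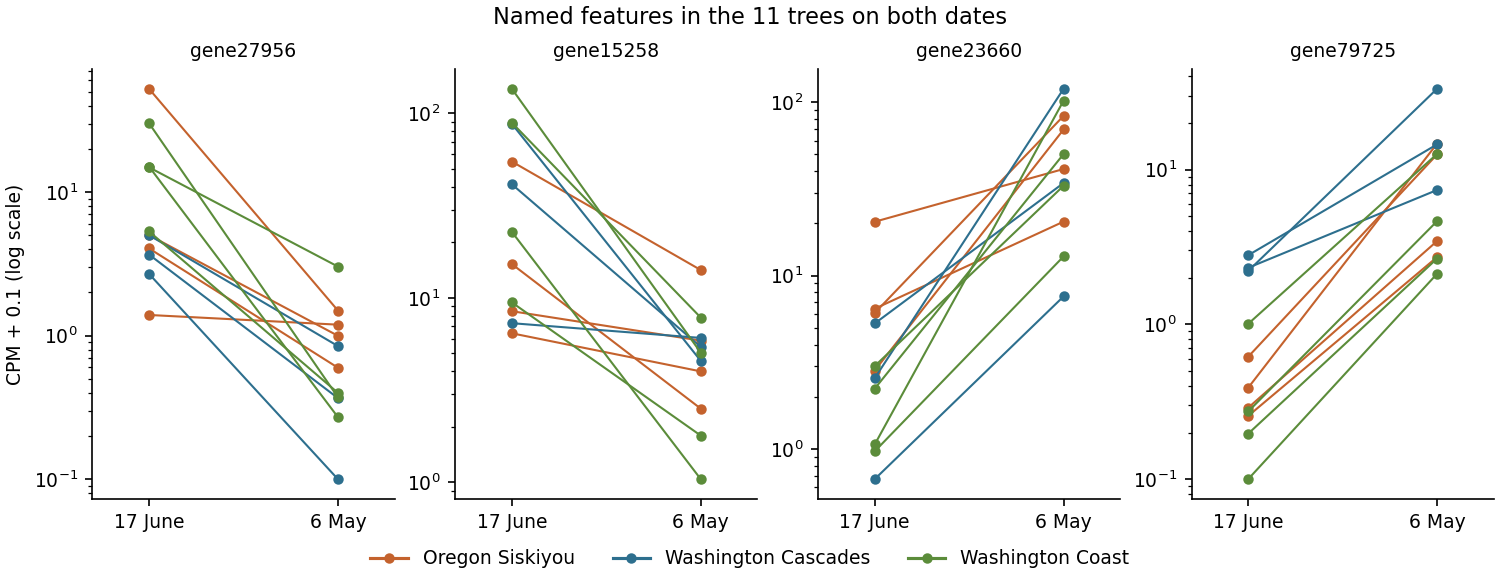
Expression of the 4 named features in 17 June and 6 May libraries, as CPM + 0.1 on a log axis; each line joins the 2 libraries of 1 tree, coloured by seed source. All 11 lines run in one direction in each panel, and the slopes differ between trees, least in gene79725 and most in gene27956.

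The named features differed in their history before May. Over 10 March, 7 April, 6 May and 17 June, gene27956 had medians of 0.739, 0.884, 0.545 and 5.44 CPM in the 11 trees, scaled over the 44 libraries of the 4 dates, so the June median stood above those of the 3 earlier dates. Tree 89 alone had a higher level on an earlier date, with 12.6 CPM on 7 April against 5.44 CPM on 17 June. For gene15258 the medians were 0.556, 1.20, 5.49 and 25.0 CPM, higher at each date than at the one before. Feature gene23660 had medians of 115, 103, 44.9 and 3.02 CPM, while its mean was 106 ± 49.4 CPM on 10 March and 113 ± 79.4 CPM on 7 April (SD, n = 11), with a higher value in April in 5 of 11 trees. For gene79725 the medians were 76.2, 13.7, 7.93 and 0.318 CPM. These series are descriptions, since the features were chosen for their change between the last 2 dates.

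The called changes were shared by most trees. Of the 4162 called features, 1817 (43.7%) changed in one direction in all 11 trees and 1866 (44.8%) in 10 of 11, against 7.25% and 13.6% of all tested features. A further 451 (10.8%) had 9 trees in the direction of the change, 27 had 8 and 1 had 6. The test itself favours features whose changes agree among these trees, so the excess over all tested features is not separate evidence. Separation of the dates was rarer than agreement in direction. In 45 features all 11 June libraries lay above all 11 May libraries, 0.159% of those tested, and in 25 features (0.0885%) all June libraries lay below. Of these, 44 and 25 were called. The separated features were not the most changed ones, with a median log2 change of 0.83 (0.24 to 2.91) in the 45 and -0.87 (-1.79 to -0.47) in the 25.

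To see how far the changes carried over to a tree that had no part in finding them, the test was repeated without each tree, and the features called in the other 10 trees were read in the tree left out. In 10 of the 11 trees, 77.9% to 96.4% of these features changed in the direction found in the others. Among features that were not called, 57.9% to 71.3% did so in the same 10 trees. Tree 89, from the Oregon Siskiyou, was the exception. In tree 89, 61.6% of the features called in the other trees had the same direction, against 52.8% of features not called. The median change in tree 89 was 0.07 for the 2626 features called higher in the other 10 trees and -0.25 for the 2307 called lower. Tree 39 was at the other end, with median changes of 0.81 and -0.75 for features called higher and lower elsewhere. The trees nearest to tree 89 were 44, with 0.46 and -0.32, and 90, with 0.40 and -0.46, so that the 3 lowest medians for called rises all belonged to Oregon trees. The remaining Oregon tree, 46, had 0.66 and -0.72 and lay within the range of the Washington trees, whose medians were 0.56 to 0.81 for called rises and -0.50 to -0.84 for called falls.

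Across the 15708 tested features that averaged 50 counts or more, the changes of 2 trees had a Pearson correlation of between -0.047 and 0.677, with a mean of 0.369 over the 55 pairs. These correlations are across features, which are not independent replicates, and each tree enters 10 pairs. Siblings did not stand out, with a mean of 0.280 in the 5 pairs of 1 family, 0.404 in the 10 pairs of different families of 1 source and 0.372 in the 40 pairs from different sources. Nor did the lane pairs, with a mean of 0.375 in 25 pairs on the same lanes and 0.382 in the 25 pairs of trees from different families on different lanes. All 5 sibling pairs were on different lanes, and they include 1 pair with tree 44 and 1 with tree 89. The lowest means with the other 10 trees were those of tree 89 (0.133) and tree 44 (0.210), and the highest was that of tree 8 (0.469).

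**Figure D3:**
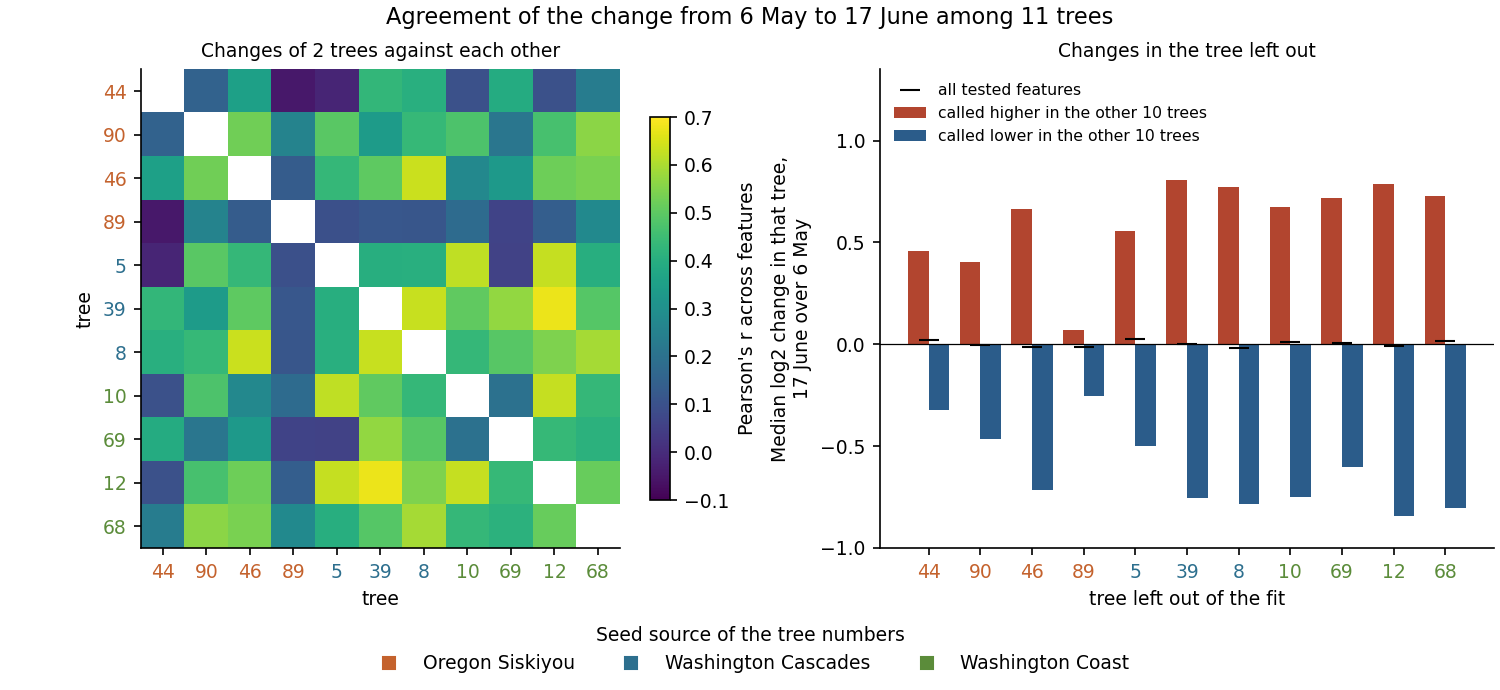
The panel on the left shows Pearson's r across 15708 features between the log2 changes of 2 trees, from -0.047 to 0.677, with tree numbers coloured by seed source; the row of tree 89 is dark throughout. In the panel on the right, bars give the median log2 change, 17 June over 6 May, in each tree for features called higher (red) or lower (blue) in the other 10 trees, and black marks give the median over all tested features; tree 89 has the shortest bars, 0.07 and -0.25.

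Leaving out single trees moved the number of calls between 2781 (without tree 39) and 4933 (without tree 89), around the 4162 of all 11 trees. The count of features higher on 17 June was lowest without tree 39, at 1255, and the count of features lower on 17 June was lowest without tree 8, at 1421, both more than 1.5 times below the counts with all trees. Without tree 10, whose buds were closed on 6 May, 3251 features were called. Trees run on lanes 3 and 5 (6 trees) gave 1107 calls by themselves, 506 higher and 601 lower, and trees on lanes 4 and 6 (5 trees, tree 89 among them) gave 54 calls, 18 higher and 36 lower. Of the 1107 and the 54 features, 89.9% and 96.3% were also called in the 11 trees together. Those 11 trees include the trees of each set, so this overlap is partly built in and does not compare the lanes.

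No feature passed the threshold for a change that differed between seed sources (edgeR, 0 of 28233, smallest adjusted p 0.0452). Without adjustment 1584 features (5.61%) had an edgeR p of at most 0.05, close to the share that chance alone gives. Among the 4162 features called between the dates the share was larger, with 409 (9.83%). DESeq2 called 14. Without the filter on low counts edgeR called 424 of 79834 features. Each pair of sources likewise gave 0 calls among 28233 features. The smallest edgeR adjusted p was 0.0114 for Coast against Oregon, 0.95 for Cascades against Oregon and 0.635 for Coast against Cascades. An unadjusted p of at most 0.05 was found in 2313 features for Coast against Oregon, 1457 for Cascades against Oregon and 653 for Coast against Cascades. These counts include the features that chance alone brings below 0.05. Within single sources the test had few trees. In Coast trees 92 features (0.326%) were called, 39 higher and 53 lower on 17 June. In Cascades trees 83 (0.287%) were called, 29 higher and 54 lower. In Oregon trees 7 (0.0244%) were called, 1 higher and 6 lower. These counts were unstable, and leaving out 1 tree could bring each of them to 0. Without tree 69 the Coast count was 475, and it was 17, 2 and 0 without trees 10, 68 and 12. The Cascades count was 756 without tree 5, 750 without tree 39 and 0 without tree 8. The Oregon count was 52 without tree 89 and 0 without any other tree. Where the count was 0, between 1953 and 4439 features had an unadjusted p of at most 0.05, those expected by chance included. DESeq2 called 1193 features in Coast trees, 568 in Cascades trees and 249 in Oregon trees.

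Features were also called in 2 sources and read in the remaining one, which had no part in the call. In the 8 Coast and Oregon trees 916 features (3.24%) were called, and 99.7% of them changed in the same direction on average in the 3 Cascades trees, against 77.3% of the features not called. The 7 Cascades and Oregon trees gave 377 features (1.32%), and 100% of these kept the direction in the 4 Coast trees, against 76.4% of features not called. The 7 Coast and Cascades trees gave by far the longest list, 3400 features (12%), and 92.9% of these had the same direction in the 4 Oregon trees, against 67.4% of features not called. The size of the change carried over less fully to Oregon trees. Risers and fallers called in Washington trees had median fitted changes of 0.88 and -0.84 there, and mean changes over the Oregon trees with medians of 0.40 and -0.44. In the other direction, risers and fallers called in Cascades and Oregon trees had median fitted changes of 0.98 and -1.11, and medians of 1.03 and -1.15 in Coast trees. Those called in Coast and Oregon trees had 0.94 and -1.02 as fitted, and 0.87 and -0.88 in Cascades trees. The Oregon trees were not alike. For features called in all other trees, medians were 0.07 and -0.25 in tree 89 but 0.66 and -0.72 in tree 46. The difference between Oregon and the Washington sources for whole lists was not tested, and feature by feature the test above gave no call.

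Calls were more frequent among abundant features, where the error was smaller. Of the 7061 features with a mean count under 20, 5.85% were called, against 12.5% between 20 and 50 counts, 18.3% between 50 and 200, 20.9% between 200 and 1000, and 20.8% of the 1628 features with at least 1000 counts. The direction of the calls moved with abundance as well. Among called features with a mean count under 20, 58.1% were higher on 17 June, and the share was 52.3%, 50.9%, 38.8% and 34.5% in the successive classes. The features called lower held 6.76 ± 0.62% of the counts of a June library, against 11.7 ± 1.49% of a May library (SD, n = 11), and their share was lower on 17 June in 11 of 11 trees. Features called higher held 7.43 ± 1.07% of counts in June and 4.87 ± 1.24% in May, and their share was higher in 10 of 11 trees. Tree 89 was the exception, with 8.04% on 17 June and 8.25% on 6 May. These shares describe the size of the lists and are not separate evidence for the change.

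The share of counts in the most abundant features was measured in each library. The 50 features with the highest summed count held 34.1 ± 4.73% of the counts on 17 June, against 28.8 ± 4.24% on 6 May (SD, n = 11). The share was higher on 17 June in 9 of 11 trees, by 5.24 ± 7.25 percentage points (exact paired permutation test, two-sided, p = 0.0342, and 0.103 after adjustment over 3 such measures). Leaving out any 1 of 7 trees (90, 46, 89, 5, 10, 12 or 68) brought the exact p above 0.05, and without tree 10 the difference was 3.82 points (exact p = 0.0684). Tree 10 had the lowest May share, 20.1%, and the highest June share, 39.5%. Tree 39 went the other way, with 24.4% on 17 June and 31.7% on 6 May. Among trees of lanes 3 and 5 the mean difference was 7.70 points (n = 6, exact p = 0.0938), and among those of lanes 4 and 6 it was 2.28 points (n = 5, exact p = 0.438, the smallest possible being 0.0625).

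A few features made up most of this difference. The features ranked 2, 3 and 6 by abundance held 5.45%, 4.72% and 2.13% of the counts of June libraries on average, against 3.56%, 3.29% and 1.11% of May libraries. None of these passed the threshold, with edgeR adjusted p values of 0.0654, 0.12 and 0.0103. The most abundant feature of all held 6.47% of June counts and 6.05% of May counts (log2 change 0.13, SE 0.22). Of the 50 features 3 were called higher and 5 lower on 17 June, a share close to the 14.7% called among all tested features and below the 20.8% among those with at least 1000 counts. The clearest was the feature ranked 31, which held 0.0775% to 0.139% of the counts of June libraries, against 0.154% to 0.280% of May libraries, so that the dates did not overlap. The median log2 change of the 50 features was 0.10, beside 0.0019 for all tested features.

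The counts of a June library had a lower effective number of features, though not beyond the variation among trees. This number, the exponential of the Shannon entropy, is lower where few features hold most counts. It was 1841 ± 613 on 17 June and 2456 ± 696 on 6 May (SD, n = 11), lower in 7 of 11 trees (exact paired p = 0.0723), and without tree 39 the difference was -787 (exact p = 0.0176). With the 50 most abundant features removed the difference turned round, to 279 more features on 17 June (exact p = 0.198). At least 1 count was found for 47826 ± 1875 features of a June library, against 46529 ± 1236 of a May library, with more in 6 of 11 trees (exact paired p = 0.108). Without tree 90 the difference was 1713 features and the exact p 0.043.

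**Figure D4:**
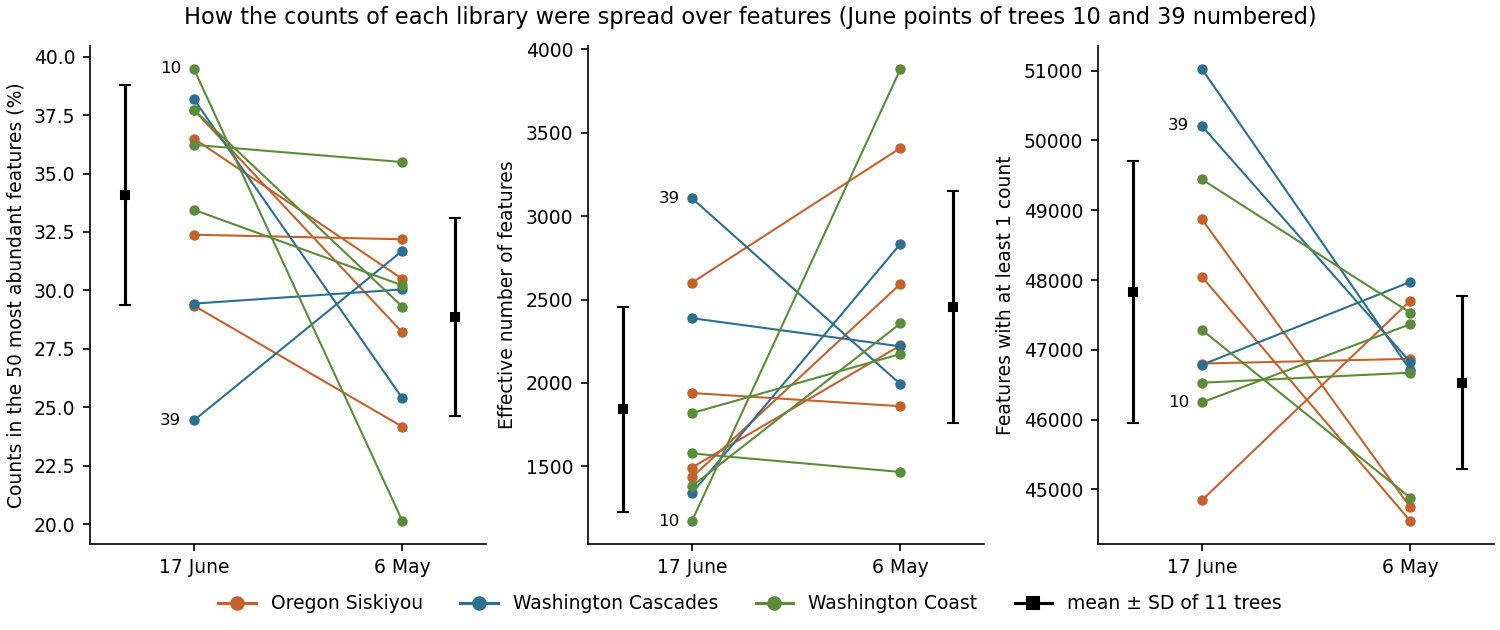
Share of counts in the 50 most abundant features (%), effective number of features, and number of features with at least 1 count, in 17 June and 6 May libraries; lines join the libraries of 1 tree, and squares with bars give the mean ± SD of 11 trees. The share is higher on 17 June in 9 of 11 trees, and the axes do not start at 0.

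Trees with a larger increase in the share of the 50 features also differed from the others in their changes as a whole. The first axis of a principal component analysis of the changes of 15708 features, which took 27.3% of the variance among trees, had a Pearson correlation of 0.772 with the change in that share (permutation p = 0.00614, Spearman's rho 0.873, permutation p = 9.6e-04, n = 11). Without trees 10 and 39, farthest from the median in share, r was 0.865. In all 5 such relations were computed, and the Benjamini-Hochberg adjusted permutation values were 0.0154 for r and 0.0048 for rho. The axis and the share come from the same libraries, and the features behind the axis include the abundant ones. They are therefore not independent measures, which the permutation values do not allow for. The first axis had r = -0.633 with the change in detected features (adjusted permutation p = 0.063). The second axis had r = 0.0093 with the change in share and r = -0.214 with the change in detected features (adjusted permutation p = 0.978 and 0.678). Within lanes r was 0.891 among the 6 trees of lanes 3 and 5 and 0.458 among the 5 trees of lanes 4 and 6, and neither was tested. The change in the share was itself related inversely to the change in the number of features detected (r = -0.767, adjusted permutation p = 0.0154, rho = -0.836, adjusted permutation p = 0.00575, n = 11). Without trees 10 and 39 r was -0.831, and it was -0.886 among the 6 trees of lanes 3 and 5 and -0.629 among the 5 trees of lanes 4 and 6. Library totals were nearly equal, so a larger share left fewer counts for all other features. An inverse relation is therefore partly built into these measures. Since the shares of abundant features and date moved together, the comparison was repeated with that share as a covariate, an alternative chosen after seeing the data. It called 2340 features, 1050 higher and 1290 lower on 17 June, 1956 of them among the 4162.

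Trees resembled each other somewhat more on 17 June than on 6 May. Correlations of log2 CPM between trees averaged 0.888 (0.858 to 0.928) in June libraries and 0.868 (0.786 to 0.916) in May libraries, and were higher in June for 44 of the 55 pairs. The mean standard deviation between trees was 0.442 on 17 June and 0.512 on 6 May on the log2 scale, a ratio of 0.862, and it was smaller in June for 72.0% of the 15708 features. An exact permutation test that exchanged the dates within trees, after centring each date, gave p = 0.0381 (two-sided, 1024 distinct exchanges). This comparison of spreads was chosen after seeing the data. The May libraries of trees 89 and 5 stood apart most, with mean correlations of 0.830 and 0.838 with the other May libraries. Without both trees the ratio was 0.913 (exact p = 0.0898), and without single trees it lay between 0.845 and 0.895 with exact p values of 0.0117 to 0.084, above 0.05 without tree 44, 46, 5, 10, 69 or 68. Without trees 5 and 89, 4465 features were called in the comparison of dates, 2357 higher and 2108 lower on 17 June.

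The libraries of 10 March and 7 April from the same 11 trees show where both ends of the change lay. Part of them were run on another flowcell than those of May and June, and a difference between flowcells was not tested. Features called higher on 17 June had a mean level of 3.14 ± 0.12, 3.10 ± 0.14, 2.77 ± 0.18 and 3.56 ± 0.13 log2 CPM on 10 March, 7 April, 6 May and 17 June (SD, n = 11). Features called lower had 3.82 ± 0.14, 3.87 ± 0.16, 4.11 ± 0.14 and 3.29 ± 0.13 log2 CPM on the same dates. In both lists 6 May and 17 June thus lay on opposite sides of the March and April levels. Choosing features for a difference between May and June favours this pattern, so the counts are given beside those of all features with a change of the same sign. Called features had larger changes than most of these, which also favours the pattern. An excess over them is therefore not separate evidence. Among features called higher, June was the highest of the 4 dates in 1225 of 1956 (62.6%), against 52.2% of all 14178 features with a positive change, and May the lowest in 63.1%, against 50.3%. Both held for 26.9% of the features called higher and for 10.1% of all with a positive change. Among features called lower, June was the lowest date in 1485 of 2206 (67.3%), against 50.4% of all 14055 features with a negative change, and May the highest in 61.4%, against 51.1%. For 29.7% of the features called lower and 10.6% of all with a negative change both held.

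June was nearer to the mean of March and April than May was in 49.3% of the features called higher and in 46.4% of those called lower, beside 49.5% of all tested features. The lists moved little between March and April, which were not used to choose them, with median changes from March to April of -0.06 for features called higher and 0.04 for features called lower, beside -0.0059 for all tested features. Few features set June apart from every earlier library. In 7 features (0.0248%) all 11 June libraries lay above the 33 libraries of the other 3 dates, and in 4 features (0.0142%) they lay below.

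**Figure D5:**
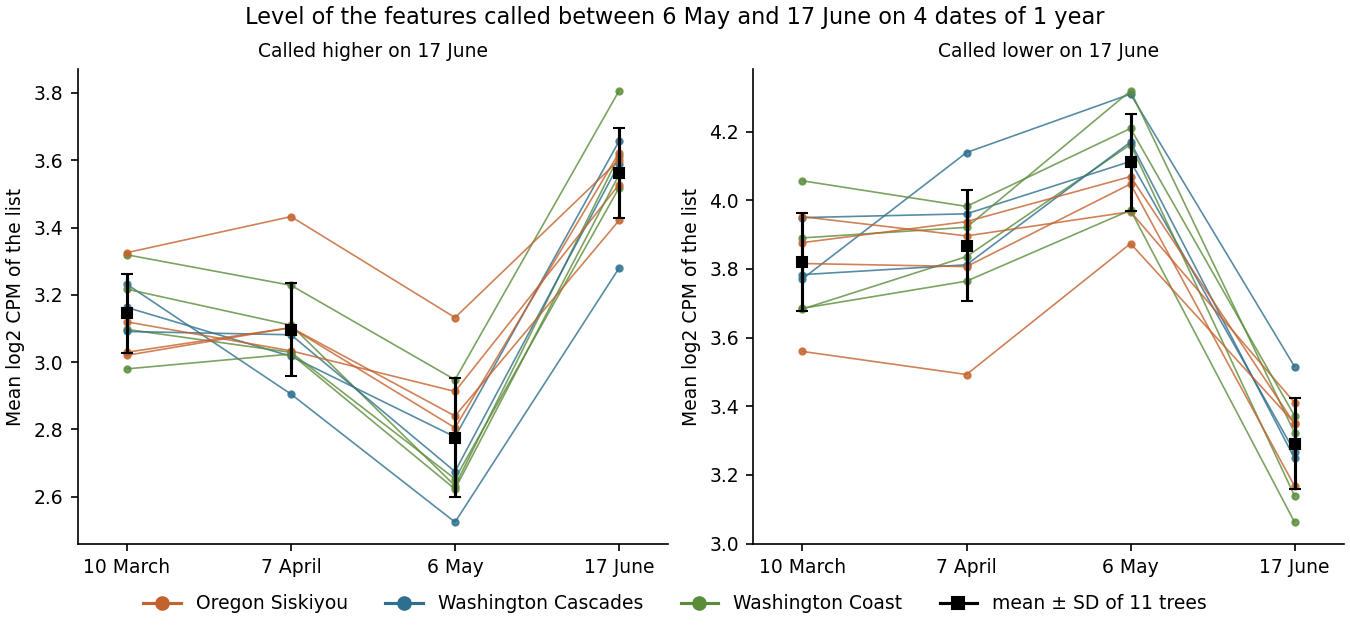
Mean level (log2 CPM) of the 1956 features called higher and of the 2206 called lower on 17 June, on 4 dates of the year; thin lines are the 11 trees, coloured by seed source, and squares with bars their mean ± SD. Means were 3.14, 3.10, 2.77 and 3.56 in the list called higher and 3.82, 3.87, 4.11 and 3.29 in the list called lower, so that 6 May and 17 June lie on opposite sides of March and April.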

How the data were processed

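Needles of 11 Douglas-fir trees were compared between 17 June and 6 May by strand-specific RNA-seq. The authors deposited 1 table of whole-number counts for 90662 features in 47 columns, brought to nearly equal totals before deposit. According to the submitters' processing notes, CASAVA 1.8 and Bowtie2 were used. Which reference and counter made the table is not given in the sources used here. One column, of tree 38, could not be assigned to a date and was not used. The deposited counts were tested by edgeR's quasi-likelihood F test (edgeR 4.0.16 in R 4.3.3), with TMM scaling, the tree as a block and Benjamini-Hochberg adjustment over all features tested. A feature was kept where its median count exceeded 5 in the libraries of a fit. The threshold was an adjusted p of 0.01 or less, and both settings follow the methods of the study. Standard errors were derived from the F statistic. Log2 CPM used a prior count of 0.5. The comparison and the alternatives were chosen with earlier results of these data known. Named features were the 2 largest rises and the 2 largest falls among called features that averaged 50 counts or more and moved in 1 direction in all 11 trees. No feature lists or cell type markers were used, because features carry numbers alone.

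The tree pairs the samples, since both dates sampled the same tree. Around the means of the dates, the libraries of 1 tree deviated together, with correlations of 0.426 to 0.790 across features, and all 11 libraries correlated best with their own tree. Trees are separate plants, but sibling trees share a family, which the tests do not use. Single values per library were tested by exact paired permutation in Python 3.11.15 with scipy 1.17.1, two-sided, where 11 trees allow a p no smaller than 9.77e-04. The tests were checked on simulated counts, drawn independently for each feature. Changes particular to a tree and shared by many features were not simulated, so the check does not cover them. Alternatives were DESeq2 1.42.0, other scalings, filters and thresholds, counts added up per family, lanes and seed sources alone, leaving out each tree, and other definitions of the library measures. Covariates for detected features and for the share of abundant features, the fits without trees 5 and 89, and the comparison of the spread between trees with its alternatives, were added after seeing the data. Nor were the principal component analysis and the 5 relations given with it among the planned tests. Counts cover sampling error only.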

Additional observations from a re-analysis of the deposited data

How the results depend on the processing

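Trees pair the samples, and without the replicate block edgeR called 1378 features (657 higher, 721 lower), of which 1374 were among the 4162 called with it, and 0 in each seed source alone (with an unadjusted p of 0.05 or less for 1789 features in Oregon, 2751 in Cascades and 5174 in Coast trees, where the block gave 7, 83 and 92 calls). Without pairing the difference in effective number of features, -614, had a permutation p of 0.0399. An adjusted p of at most 0.05 gave 8091 features (3932 higher, 4159 lower), 39, 1018 and 1768 in Oregon, Cascades and Coast trees, and 1 for the difference between sources. Library totals without further scaling gave 2744 features, of which 976 were higher and 1768 lower, and a minimum log2 change of 1 gave 14 (4 higher, 10 lower). Lanes 3 and 5 gave 1107 (506 higher, 601 lower), lanes 4 and 6 gave 54 (18 and 36), and the share of the 50 features as a covariate 2340 (1050 and 1290). The test of differences between sources gave 424 calls without a filter and 14 with DESeq2. DESeq2 called 249, 568 and 1193 features in Oregon, Cascades and Coast trees, and the fit of all 22 libraries 27, 26 and 950. The cause of these shifts was not tested.

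Leaving out 1 tree gave 2781 to 4933 features, 1255 to 2626 higher and 1421 to 2307 lower, 0 to 52 in Oregon, 0 to 756 in Cascades and 0 to 475 in Coast trees. It moved the share difference between 3.82 and 6.48 points (exact p = 0.00586 to 0.0684), the difference in detected features between 995 and 1713, that in effective number between -787 and -405, and the ratio of spreads between 0.845 and 0.895. The 500 most abundant features gave 3.77 points (exact p = 0.0732), the effective number without the 50 features turned to 279 (exact p = 0.198), and the ratio of spreads without trees 5 and 89 was 0.913 (exact p = 0.0898). The 4 named features kept direction and threshold under all 14 alternatives run for each, which their choice as large, called changes in the same libraries favours. DESeq2 (5268 calls), edgeR's own filter (4172), no filter (5684) and counts added up per family (3323) stayed within 1.5 times of 4162.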

Other observations

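Outliers were looked for by Dixon's test in 26 groups of 4 trees of 1 source, covering the 3 library measures on each date and their change, and the changes of the 4 named features. None exceeded the 95% critical value for 4 samples, which chance alone passes in about 1 in 20 groups. The 3 Cascades trees were too few for this test.

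Over the 28233 tested features, all 11 May libraries lay above the 33 libraries of the other dates in 2 features and below them in 7, beside 7 above and 4 below for 17 June. Those of 7 April lay above in 17 and below in 1, and those of 10 March in 11 and 6.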
